A study of Saccharomyces cerevisiae with 18 samples.

Results

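The transcripts described here are those of 40 genes for heat shock chaperones, the co-chaperones that work with them and their regulator, out of 5543 genes named on a spotted array of *Saccharomyces cerevisiae* reading frames. The members were matched by gene symbol, by a rule that uses no measured ratio. The list itself was chosen with earlier results of these data known. From these same arrays the paper had named several members, *HSP104* and *FES1* among them, as raised in smooth colonies. The counts of calls are thus not independent of that choice. By the place where the products of the members work, 29 belong to the cytosol, 8 to mitochondria, 1 (*KAR2*) to the endoplasmic reticulum, 1 (*HSP30*) to the plasma membrane and 1 (*HSF1*) to the nucleus. RNA came from whole giant colonies of 3 strains on glycerol and yeast extract agar at an age of 4 or 7 days. BR-F is a wild strain whose colonies are structured, BR-S is its domesticated derivative with smooth colonies, and BR-RF is a feral strain, a subclone that regained structured colonies after months of static starvation of BR-S in minimal medium with ethanol. The strains are described as isogenic, no gene was deleted or introduced, no colony was treated, and BR-RF rests on 1 subclone. From qPCR of genes on chromosome XV, however, the paper infers partial genome duplications in BR-RF. It places groups of genes with shifted expression in BR-RF on chromosomes IX, XII and XV. The strains were set against each other in 3 couples on each day, with 3 arrays for each couple and day and 18 arrays in all.

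Chaperones bind unfolded proteins and help them to fold, to cross membranes or to leave aggregates. Hsp70 proteins do this in cycles of ATP, which J proteins start and exchange factors end, Hsp90 takes over some of their clients, and the Hsp104 family pulls proteins out of aggregates together with Hsp70. In yeast the factor Hsf1 switches most of these genes on when unfolded proteins build up, and Msn2 and Msn4 add a general stress response.

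The log2 ratio of each spot was taken after a loess normalisation of each array, and the 2 spots of a member were averaged. Arrays 1 and 2 of a couple and day held the same RNA with the dyes exchanged, and their mean was taken as biological replicate 1 beside array 3 as biological replicate 2. Array 3 has no dye-swapped partner, so replicate 2 is not balanced for the dyes and dye effects can enter each fitted ratio. Ratios are given as the limma estimate ± SE with n = 2 biological replicates, where the SE rests on the spread of all 6 couples and days (median SE 0.20). Calls were made at an adjusted p under 0.05, over all genes of a couple and day. Spots of 36 members were used on all 18 arrays. *SSB1*, for a ribosome-associated Hsp70, gave a signal on only 1 array and was not tested, and *SIS1*, for an essential J protein, was not tested between BR-RF and BR-S. Closely related pairs such as *HSP82* and *HSC82*, the *SSA* genes, *SSE1* and *SSE2* or *SSC1* and *ECM10* can share signal on spotted reading frames, so their separate values are uncertain. The colonies hold cells of several kinds, and a change in their proportions and a change of RNA per cell cannot be told apart. *FLO11*, whose flocculin marks structured colonies, was not called in any comparison tested, with log2 ratios of 0.14 for BR-F and 0.21 for BR-RF relative to BR-S on day 7, so its spots gave no check of the strain labels. Of 19 genes listed as sporulation markers 7 to 13 were tested in a comparison and 1 or 2 were called in each. Of all genes 1.72% to 8.61% were called lower and 2.84% to 7.85% higher, so these few calls give no measure of sporulation. *SPS100* was lower in BR-F (-1.65) and in BR-RF (-1.27) than in BR-S on day 4, and *SPS19* (0.66 and 1.31 on days 4 and 7) and on day 7 *SPS22* (1.47) were higher in BR-F than in BR-S. *SPO19* was higher in BR-RF than in BR-S on day 7. In BR-RF over BR-F *SPS19* was lower on both days and *SPS4* was higher on day 7. Their part in the chaperone ratios was not tested.

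Where chaperone transcripts differed between a structured strain and the smooth strain, nearly all were lower in the structured strain. In BR-F over BR-S, 9 of 39 members tested were called lower on day 4 and 0 higher, while 1.72% of all genes were called lower and 2.97% higher. On day 7, 8 were lower and 1 (*HSF1*) was higher, against 5.1% and 6.08% of all genes. In BR-RF over BR-S, 9 of 38 members were lower and 0 higher on day 4, beside 1.82% and 2.97% of all genes, and 17 were lower and 1 (*CUR1*) was higher on day 7, beside 8.61% and 7.27%. The median log2 ratio of the members was -0.38 and -0.27 in BR-F over BR-S and -0.51 and -0.62 in BR-RF relative to BR-S on days 4 and 7, where the median of all genes lay within 0.01 of 0. These comparisons share BR-S, so a call in the one strain does not stand apart from a call in the other. In BR-RF over BR-F, which leaves BR-S out, the members had medians of 0.03 and -0.22. In the matrix of ratios 31 and 34 of 39 members lay below 0 in BR-F over BR-S on days 4 and 7. In BR-RF over BR-S 35 of 38 did on each day, and in BR-RF over BR-F 18 and 32 of 39 did. Without array 3, which leaves 1 biological replicate and takes the spread from the other comparisons, 7 and 0 members were called in BR-F over BR-S and 1 and 7 in BR-RF relative to BR-S on days 4 and 7, and without array 1 the last of these counts was 11. Although they held the same RNA, arrays 1 and 2 of BR-RF against BR-S correlated at only 0.30 (day 4) and 0.39 (day 7). The biological replicates there correlated at 0.50 and 0.76. Elsewhere the dye-swapped arrays correlated at 0.35 to 0.61 and the biological replicates at 0.35 to 0.72. On day 7, array 1 of BR-RF against BR-S had the fewest named spots used (8040). Its Cy3 signal was 0.72 times the background.

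**Figure D1:**
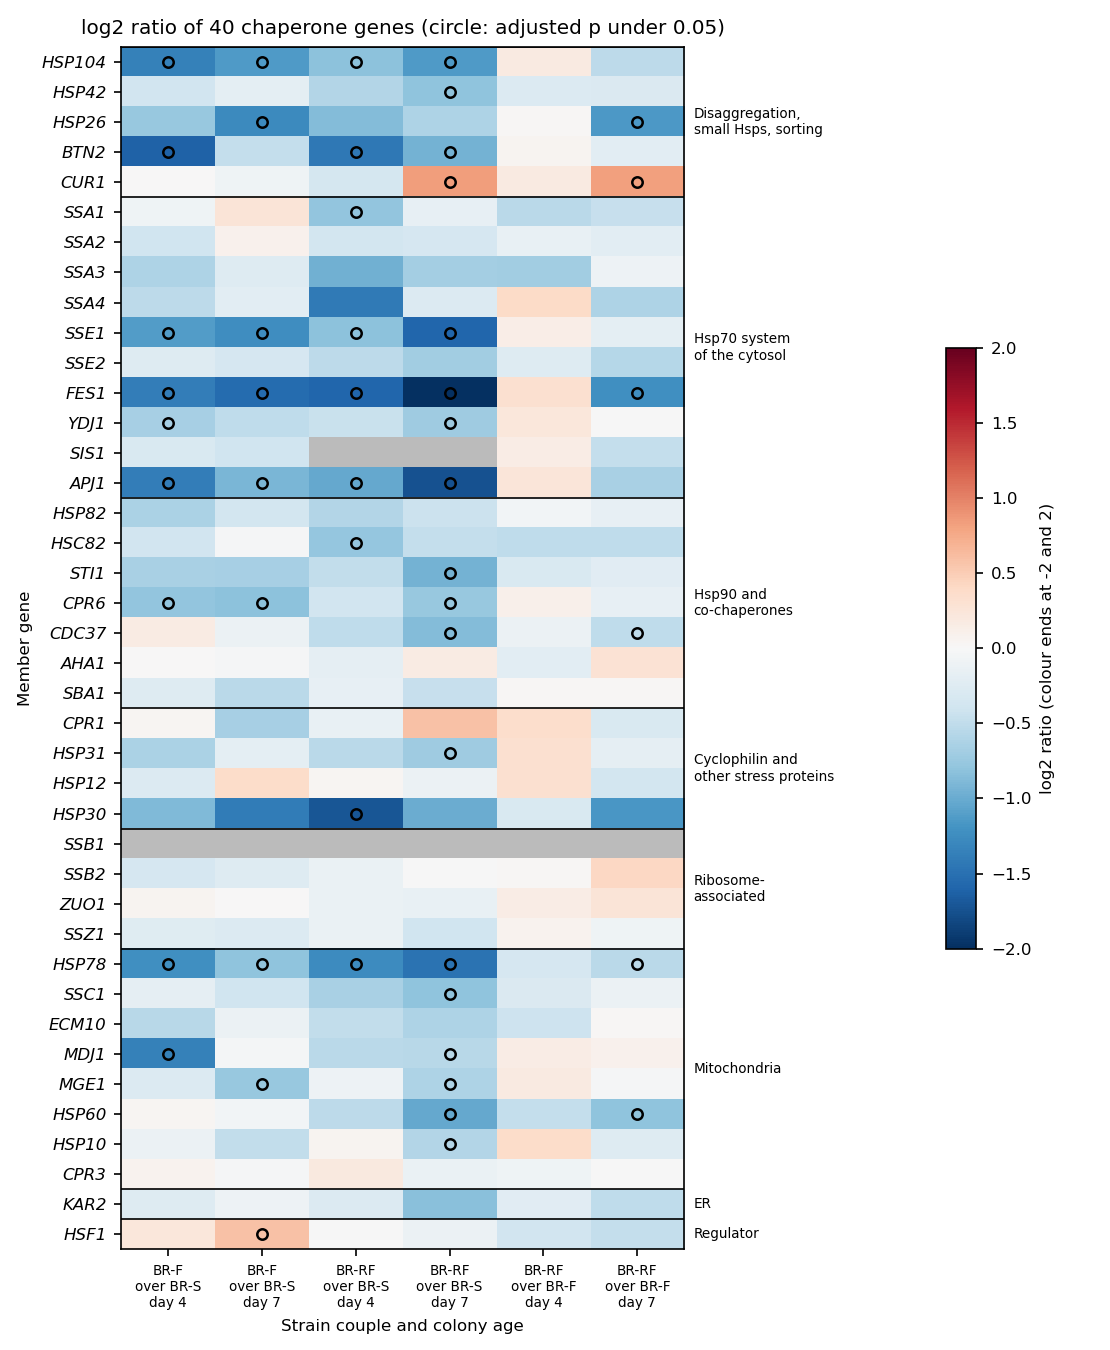
Log2 ratio of each of the 40 member genes (rows, grouped by role) in the 6 comparisons of strain couple and colony age (columns). Blue is lower and red higher in the strain named before "over", the colour scale ends at -2 and 2, grey cells were not tested and circles mark an adjusted p under 0.05. *HSP104*, *SSE1*, *FES1*, *APJ1* and *HSP78* carry a circle in all 4 columns with BR-S.

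The disaggregases were lower in both structured strains. *HSP104* (YLL026W), for the cytosolic disaggregase, had biological replicates at -1.51 and -1.19 in BR-F relative to BR-S on day 4 and at -1.04 and -1.23 on day 7. The fitted log2 ratios were -1.35 ± 0.17 (2.55-fold lower, adjusted p = 0.00115) and -1.14 ± 0.17 (2.2-fold lower, adjusted p = 0.00234). Both replicates of each day lay well below 0. In BR-RF over BR-S its replicates were -0.61 and -1.04 on day 4 and -1.15 and -1.11 on day 7, with ratios of -0.83 ± 0.17 (adjusted p = 0.019) and -1.13 ± 0.17 (adjusted p = 0.00189). Its value on the 12 arrays with BR-S ran from -1.70 to -0.25, without an array above 0. *HSP78* (YDR258C), for the mitochondrial relative of Hsp104, had replicates at -1.08 and -1.39 in BR-F on day 4 and at -0.77 and -0.83 on day 7, with ratios of -1.23 ± 0.16 (adjusted p = 0.00137) and -0.80 ± 0.16 (adjusted p = 0.00965). In BR-RF they were -1.10 and -1.42 on day 4 and -1.51 and -1.45 on day 7, with ratios of -1.26 ± 0.16 (adjusted p = 0.0014) and -1.48 ± 0.16 (2.79-fold lower, adjusted p = 0.000587). On the 12 arrays *HSP78* ran from -1.69 to -0.68. Without array 3 the calls of *HSP104* ended in BR-F on day 7 (-1.04) and in BR-RF on day 4 (-0.61) and that of *HSP78* in BR-F on day 7 (-0.77). Without array 2 the call of *HSP104* in BR-RF on day 4 ended as well (-0.64), and with the loess taken within print blocks its ratio there was -0.51.

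Within the Hsp70 system of the cytosol 3 or 4 of the 9 or 10 members tested were lower in each comparison with BR-S, and all but 1 of these calls were of exchange factors and J proteins rather than of the Hsp70 genes themselves. The medians of the system were -0.57 and -0.37 for BR-F and -0.81 and -0.70 for BR-RF on days 4 and 7. *FES1* (YBR101C), for an exchange factor of cytosolic Hsp70, had the lowest ratio of all members against BR-S on day 7 in both strains. Its replicates in BR-F over BR-S were -1.61 and -1.14 on day 4 and -1.52 and -1.55 on day 7, which gave -1.38 ± 0.23 (2.60-fold lower, adjusted p = 0.00694) and -1.54 ± 0.23 (2.90-fold lower, adjusted p = 0.00258). In BR-RF they were -1.28 and -1.90 on day 4 and -2.50 and -1.79 on day 7, which gave -1.59 ± 0.23 (adjusted p = 0.00334) and -2.14 ± 0.23 (4.42-fold lower, adjusted p = 0.000587). No array with BR-S was above -0.93. *SSE1* (YPL106C), for the main Hsp110 exchange factor, had BR-F replicates at -1.32 and -0.90 on day 4 and at -1.27 and -1.21 on day 7, with ratios of -1.11 ± 0.20 (adjusted p = 0.00908) and -1.24 ± 0.20 (adjusted p = 0.00358). In BR-RF its replicates were -0.61 and -1.02 on day 4 and -1.58 and -1.59 on day 7, with ratios of -0.81 ± 0.20 (adjusted p = 0.0423) and -1.59 ± 0.20 (adjusted p = 0.000944). The call of *SSE1* in BR-RF on day 4 was close to the threshold and ended without array 2 (-0.69) or array 3 (-0.61). Without array 3 the other calls of *SSE1* ended in BR-F on day 4 (-1.32) and day 7 (-1.27), as did those of *FES1* in BR-F on day 7 (-1.52) and in BR-RF on day 4 (-1.28).

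*APJ1* (YNL077W), for a J protein that helps to clear aggregates, was called in the same 4 comparisons. Its replicates in BR-F over BR-S were -1.63 and -1.13 on day 4 and -1.12 and -0.70 on day 7, with ratios of -1.38 ± 0.23 (adjusted p = 0.00739) and -0.91 ± 0.23 (adjusted p = 0.0314). In BR-RF they were -1.20 and -0.86 on day 4 and -1.90 and -1.59 on day 7, with ratios of -1.03 ± 0.23 (adjusted p = 0.0337) and -1.74 ± 0.23 (3.35-fold lower, adjusted p = 0.00123). Its spots were dim, with a median signal of 1.01 times the background in Cy3 and 1.69 times in Cy5, and no array with BR-S was above -0.59. *YDJ1* (YNL064C), for the most abundant J protein of the cytosol, was lower in BR-F on day 4, with replicates at -0.73 and -0.61 and a ratio of -0.67 ± 0.15 (adjusted p = 0.034), and in BR-RF on day 7, with replicates at -0.67 and -0.74 and a ratio of -0.71 ± 0.15 (adjusted p = 0.0131). In the comparisons where it was not called its ratio was -0.50 ± 0.15 (BR-F on day 7) and -0.44 ± 0.15 (BR-RF on day 4). *SIS1* (YNL007C) was at -0.30 ± 0.22 and -0.40 ± 0.22 in BR-F on days 4 and 7, neither of them called. Without array 1 the call of *APJ1* in BR-F on day 7 ended (-0.71), without array 2 that in BR-RF on day 4 (-0.72), and without array 3 both (-1.12 and -1.20), as well as both calls of *YDJ1* (-0.73 and -0.67).

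Of the 4 *SSA* genes 1 was called, in 1 comparison. *SSA1* (YAL005C), for a constitutive Hsp70 of the cytosol, was called only in BR-RF relative to BR-S on day 4, with replicates at -0.97 and -0.61 and a ratio of -0.79 ± 0.20 (adjusted p = 0.0472). Its arrays on that day read -1.85, -0.10 and -0.61, so the value rested largely on array 1, without which it was -0.35 with no call, while without array 2 it was -1.23. The call ended without array 3 too (-0.97) and in 7 of 10 settings that kept all arrays. In BR-F its ratios were -0.09 ± 0.20 and 0.26 ± 0.20. *SSA2* (YLL024C), which lies close to *HSP104* on chromosome XII, ranged from -0.40 to 0.09 over the 4 comparisons with BR-S and was not called. The stress-induced *SSA3* (YBL075C) and *SSA4* (YER103W) were not called either, at -0.96 to -0.26 and -1.41 to -0.21. *SSA3* nevertheless lay below 0 on all 12 arrays with BR-S. *SSA4* had an SE of 0.45, so its lowest ratio did not pass the test (adjusted p = 0.122). *SSE2* (YBR169C), the stress-induced relative of *SSE1*, reached -0.70 ± 0.23 in BR-RF on day 7 (95% interval -1.20 to -0.20, adjusted p = 0.0598) and was not called. The difference between *SSE1* and *SSE2* was not tested.

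**Figure D2:**
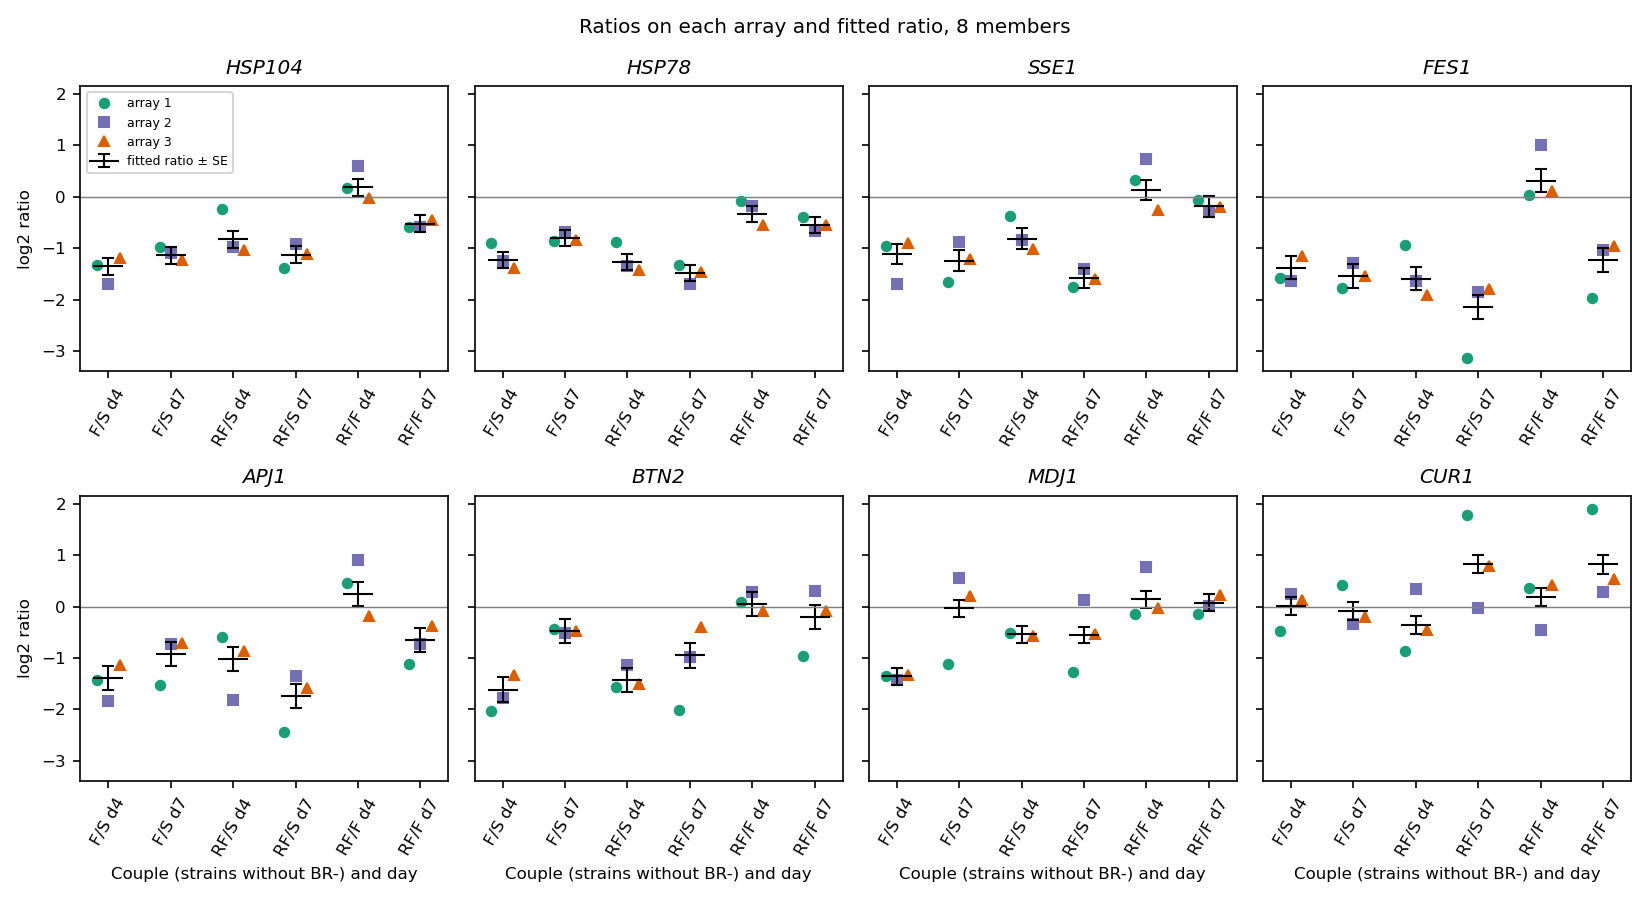
Log2 ratio of 8 members on each array (coloured points) and the fitted ratio with its SE (black), for the couples BR-F over BR-S (F/S), BR-RF over BR-S (RF/S) and BR-RF over BR-F (RF/F) on days 4 (d4) and 7 (d7). *HSP104*, *HSP78*, *SSE1*, *FES1* and *APJ1* lie below 0 on all 12 arrays with BR-S, while *MDJ1* and *CUR1* have dye-swapped arrays (1 and 2) on both sides of 0 on day 7.

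Of the Hsp90 genes themselves, 1 was lower, in 1 comparison. *HSP82* (YPL240C), for the inducible Hsp90, was between -0.63 and -0.36 in the 4 comparisons with BR-S with an SE of 0.26 and was called in none. Of its 36 spots 23 were saturated, which narrows ratios. This limit was not its own, since 24 members had at least 1 saturated spot. Among them were *SSA3* (13 spots), *HSP42* (12), *SSA4* (7) and *HSP104* (6). *HSC82* (YMR186W), for the constitutive Hsp90, was lower in BR-RF relative to BR-S on day 4, with replicates at -0.71 and -0.84 and a ratio of -0.77 ± 0.16 (adjusted p = 0.0222), a call that ended without array 3 (-0.71). On day 7 it was at -0.48 ± 0.16 (adjusted p = 0.0672), and in BR-F its ratios were -0.38 ± 0.16 and -0.03 ± 0.16.

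Among the Hsp90 co-chaperones *STI1*, *CPR6* and *CDC37* were lower in at least 1 comparison, and *AHA1* and *SBA1* did not pass the test in any. *STI1* (YOR027W), which bridges Hsp70 and Hsp90, was called in BR-RF relative to BR-S on day 7, with replicates at -1.02 and -0.86 and a ratio of -0.94 ± 0.21 (1.92-fold lower, adjusted p = 0.0133). In the other comparisons with BR-S it lay between -0.66 and -0.49. *CPR6* (YLR216C), a cyclophilin that binds Hsp90, was lower in BR-F on day 4 (replicates -1.15 and -0.43, ratio -0.79 ± 0.19, adjusted p = 0.0413) and on day 7 (replicates -0.94 and -0.69, ratio -0.82 ± 0.19, adjusted p = 0.0209). In BR-RF it was lower on day 7, with replicates at -0.85 and -0.68 and a ratio of -0.76 ± 0.19 (adjusted p = 0.0228). Its arrays on day 7 read -1.56, -0.33 and -0.69 in BR-F and -1.58, -0.13 and -0.68 in BR-RF. *CDC37* (YDR168W), which delivers kinases to Hsp90, was called only in BR-RF. Its replicates relative to BR-S on day 7 were -0.89 and -0.84 (ratio -0.86 ± 0.14, adjusted p = 0.00312), and relative to BR-F on day 7 they were -0.50 and -0.52 (ratio -0.51 ± 0.14, adjusted p = 0.0322). Between BR-F and BR-S *CDC37* was at 0.16 ± 0.14 and -0.12 ± 0.14. *AHA1* (YDR214W), the ATPase activator, stayed between -0.18 and 0.17 against BR-S, and *SBA1* (YKL117W), the p23 protein, between -0.54 and -0.16. The calls of *CPR6* depended on the processing. With the loess within print blocks its ratio in BR-RF on day 7 was -0.24, without array 1 its ratios on day 7 were -0.51 in BR-F and -0.40 in BR-RF, without array 2 that in BR-F on day 4 was -0.66, and without array 3 those on day 7 were -0.94 and -0.85, all with an adjusted p above the threshold. Without array 3 the calls of *STI1* (-1.02) and *CDC37* (-0.89 over BR-S and -0.50 over BR-F) also ended, and without array 1 that of *CDC37* over BR-F (-0.39).

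The 2 sorting factors of aggregates were called in opposite directions. *BTN2* (YGR142W), whose protein gathers misfolded proteins into deposits, was among the lowest members on day 4. Its replicates were -1.90 and -1.32 in BR-F and -1.34 and -1.51 in BR-RF over BR-S, with ratios of -1.61 ± 0.24 (3.06-fold lower, adjusted p = 0.00332) and -1.42 ± 0.24 (adjusted p = 0.00766). On day 7 its replicates were -0.48 and -0.46 in BR-F (ratio -0.47 ± 0.24, adjusted p = 0.23) and -1.50 and -0.40 in BR-RF (ratio -0.95 ± 0.24, adjusted p = 0.0228). The 12 arrays with BR-S ran from -2.02 to -0.40. *CUR1* (YPR158W), the paralog of *BTN2*, was the only member called higher in BR-RF. On day 7 its replicates were 0.88 and 0.79 over BR-S (ratio 0.83 ± 0.18, adjusted p = 0.0121) and 1.10 and 0.54 over BR-F (ratio 0.82 ± 0.18, 1.76-fold higher, adjusted p = 0.0105). Between BR-F and BR-S *CUR1* was at 0.01 ± 0.18 and -0.08 ± 0.18. The dye-swapped arrays of *CUR1* read 1.78 and -0.03 over BR-S and 1.90 and 0.29 over BR-F, so array 1 carried much of the value, and without it the ratios were 0.38 and 0.42 and both calls ended, while without array 2 the ratio over BR-S was 1.29. The ratio of *BTN2* in BR-RF on day 7 was -1.50 without array 3. Without array 3 the call of *CUR1* over BR-S (0.88) and that of *BTN2* in BR-RF on day 4 (-1.34) ended.

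Of the small heat shock proteins and further stress proteins, *HSP42*, *HSP26*, *HSP30* and *HSP31* were lower in 1 or 2 comparisons each. *HSP42* (YDR171W), for the small Hsp present at all times, was lower in BR-RF relative to BR-S on day 7, with replicates at -0.81 and -0.79 and a ratio of -0.80 ± 0.18 (adjusted p = 0.0144), a call that ended without array 3 (-0.81). *HSP26* (YBR072W), for the small Hsp of stressed and starved cells, was called lower on day 7 in BR-F over BR-S, with replicates at -0.86 and -1.69 (ratio -1.28 ± 0.34, adjusted p = 0.0344), and in BR-RF over BR-F, with replicates at -0.35 and -1.94 (ratio -1.15 ± 0.34, adjusted p = 0.0424). Arrays 1 and 2 of these comparisons read 0.09 and -1.81, and 0.91 and -1.62, from the same RNA. In the authors' value table the ratios were -0.38 and -0.34 and neither was called. *HSP30* (YCR021C), for a small protein of the plasma membrane, was lower in BR-RF relative to BR-S on day 4, with replicates at -1.81 and -1.60 (ratio -1.70 ± 0.41, adjusted p = 0.0396). *HSP31* (YDR533C), for a protein of the DJ-1 family, was lower in BR-RF on day 7, with replicates at -0.74 and -0.68 (ratio -0.71 ± 0.18, adjusted p = 0.026), but its arrays read -1.55, 0.07 and -0.68. *HSP12* (YFL014W) and *CPR1* (YDR155C), for a membrane stress protein and the main cyclophilin of the cytosol, were not called and had SEs of 0.46 and 0.55. Without array 2 the ratios of *HSP26* were -0.80 and -0.51, and without array 3 they were -0.86 and -0.35, with no call left, and without array 1 that in BR-RF over BR-F was -1.78. *HSP30* lost its call without array 3 (-1.81), and *HSP31* lost its call without array 1 (-0.30) or array 3 (-0.74), and without array 2 its ratio was -1.12.

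Several of these members were those on which the dyes disagreed most. The median gap between arrays 1 and 2, which should read alike, was 2.21 for *HSP26*, 1.69 for *CPR1*, 1.25 for *SSA4* and 1.13 for *HSP12* on the log2 scale, while the median over the 39 members with both arrays was 0.41 and that over all genes 0.37. The signal of *HSP26* and *HSP30* over the background in Cy3 was 0.54 and 0.46, the lowest of the members, and that of *CPR1* was 0.86. On day 7 the direct ratio of BR-RF over BR-S exceeded the sum of the other couples by 1.8 for *HSP26*, by 1.57 for *HSP30* and by 1.56 for *CPR1*, where the median absolute gap of the members was 0.21. In the plot of dye-swapped arrays the 4 coloured genes lie far from the line, and with a dye term in the fit the ratios of *HSP26* on day 7 were -0.97 (BR-F against BR-S) and -0.84 (BR-RF against BR-F), and neither was called.

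**Figure D3:**
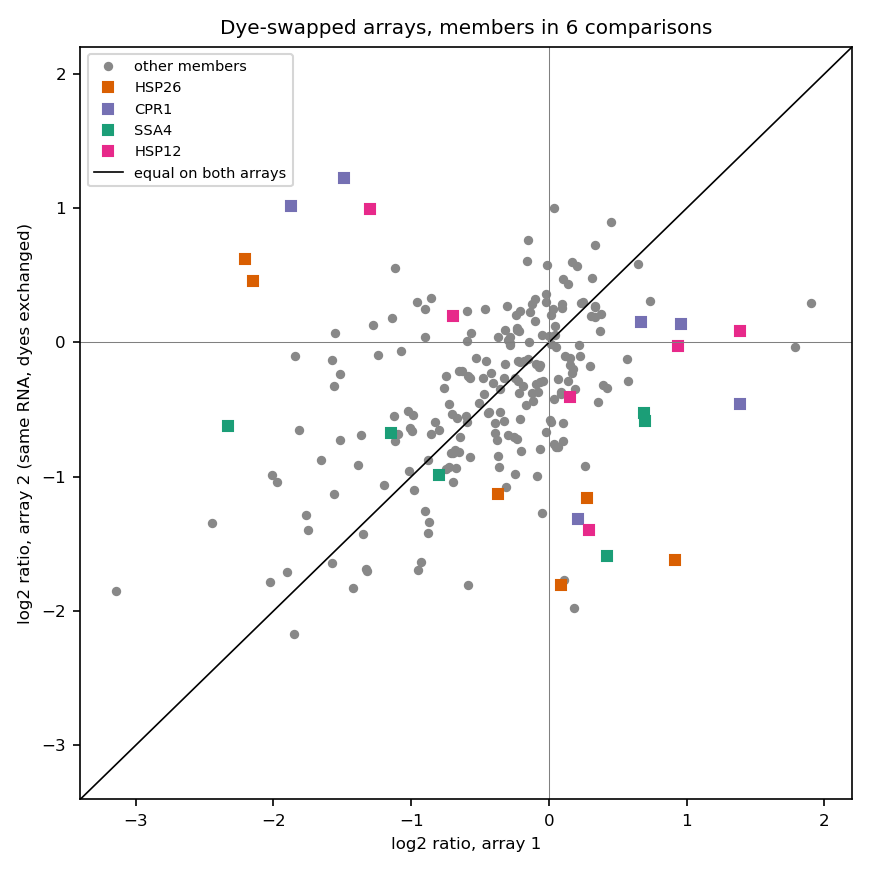
Log2 ratio on array 1 (horizontal) against array 2 (vertical), which held the same RNA with exchanged dyes, for every member in the 6 comparisons. Points on the line read alike on both arrays. *HSP26*, *CPR1*, *SSA4* and *HSP12* (squares) lie farthest from it, with median gaps of 1.13 to 2.21.

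Most mitochondrial members were called lower in BR-RF relative to BR-S on day 7. Of the 8 members, 2 were lower in BR-F over BR-S on each day and 1 was lower in BR-RF on day 4, but 6 were lower in BR-RF on day 7, and 2 were lower in BR-RF relative to BR-F on that day. Of these 6 calls 5 ended without array 1 and the same 5 without array 3, each time all but that of *HSP78*, and 4 ended with the normexp background. The median log2 ratio of the mitochondrial members was -0.23, -0.26, -0.51 and -0.62 in the 4 comparisons with BR-S, and that of the cytosolic members -0.39, -0.30, -0.52 and -0.62, with 7 of 28, 6 of 28, 7 of 27 and 11 of 27 called lower. Of all genes 1.72%, 5.1%, 1.82% and 8.61% were called lower in these comparisons, and 7.44% in BR-RF relative to BR-F on day 7. *KAR2* (YJL034W), the Hsp70 of the endoplasmic reticulum, was called in none. Its ratios were -0.26, -0.10, -0.28 and -0.84, and its 95% interval in BR-RF on day 7 was -1.49 to -0.19 (adjusted p = 0.0776). The compartments were described by these counts and medians, without a test between them.

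**Figure D4:**
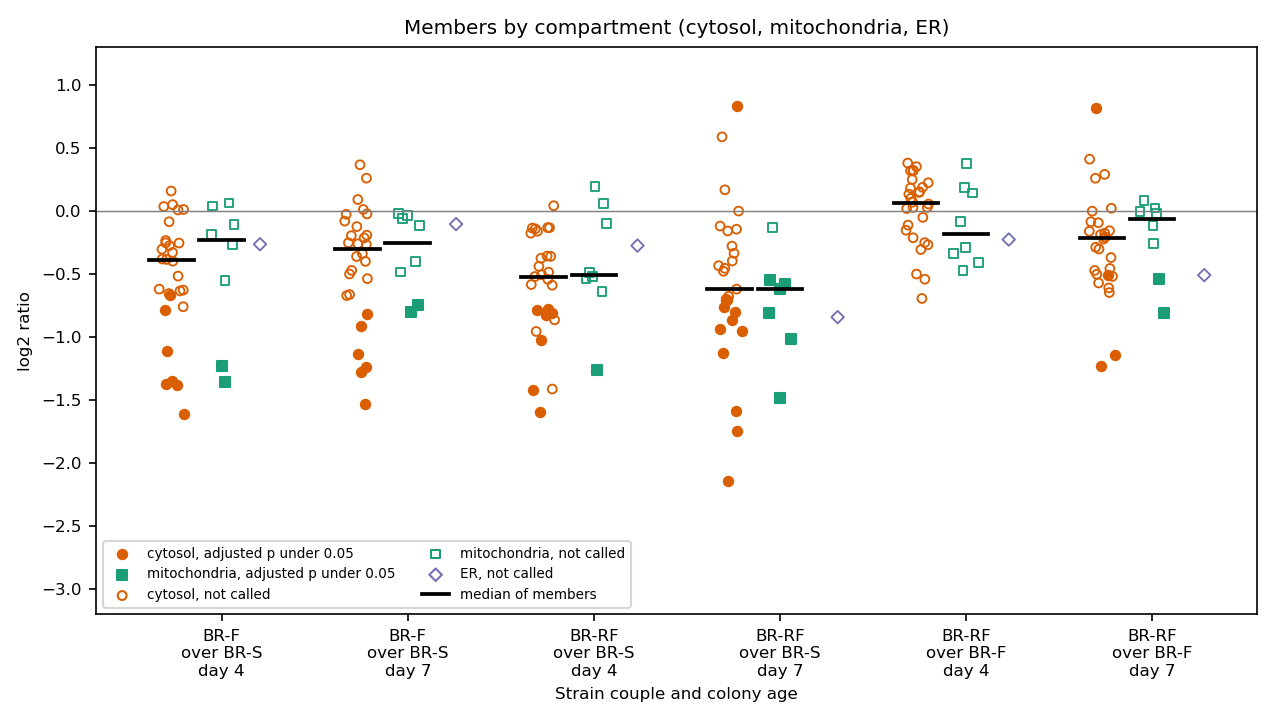
Log2 ratios of the cytosolic (circles), mitochondrial (squares) and ER (diamond) members in the 6 comparisons of couple and age. Filled symbols have an adjusted p under 0.05 and black bars are medians, which lie between -0.62 and -0.23 in the 4 comparisons with BR-S and between -0.22 and 0.06 in BR-RF over BR-F.

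*MDJ1* (YFL016C), the J protein of mitochondrial Hsp70, was lower in BR-F relative to BR-S on day 4, with arrays at -1.35, -1.43 and -1.33 and a ratio of -1.36 ± 0.16 (2.56-fold lower, adjusted p = 0.000947). On day 7 the arrays read -1.12, 0.56 and 0.21 and the ratio was -0.04 ± 0.16. In BR-RF it was at -0.54 ± 0.16 on day 4 (adjusted p = 0.0998) and was called on day 7, with replicates at -0.57 and -0.53 (ratio -0.55 ± 0.16, adjusted p = 0.0428), from arrays at -1.28, 0.13 and -0.53, a call that ended in 6 of 10 settings that kept all arrays. Of the 3 comparisons with BR-S in which both dye orders were measured, the arrays lay on the same side of 0 only in BR-F on day 4. *MGE1* (YOR232W), the exchange factor of this Hsp70, was lower on day 7 in BR-F (replicates -0.74 and -0.76, ratio -0.75 ± 0.17, adjusted p = 0.017) and in BR-RF (replicates -0.67 and -0.58, ratio -0.62 ± 0.17, adjusted p = 0.0307). The arrays of *MGE1* in BR-RF on day 7 read -1.24, -0.09 and -0.58. *SSC1* (YJR045C), the mitochondrial Hsp70 itself, was lower in BR-RF on day 7 only, with replicates at -0.88 and -0.74 (ratio -0.81 ± 0.23, adjusted p = 0.0405). Its relative *ECM10* (YEL030W) was not called, at -0.61 ± 0.24 in the same comparison. Without array 1 the ratios in BR-RF on day 7 were -0.20 for *MDJ1*, -0.34 for *MGE1* and -0.81 for *SSC1*, and without array 3 they were -0.57, -0.67 and -0.88, in each case with no call, while without array 2 that of *MDJ1* was -0.90. Without array 3 the call of *MGE1* in BR-F also ended (-0.74).

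The chaperonin of mitochondria, in which *HSP10* caps the ring made by *HSP60*, was lower in BR-RF on day 7. *HSP60* (YLR259C) had replicates at -1.23 and -0.80 over BR-S (ratio -1.02 ± 0.24, 2.03-fold lower, adjusted p = 0.0173) and at -0.83 and -0.78 over BR-F (ratio -0.81 ± 0.24, adjusted p = 0.0434). Its arrays over BR-S read -1.81, -0.65 and -0.80. Between BR-F and BR-S it was at 0.04 ± 0.24 and -0.06 ± 0.24. *HSP60* lies on the right arm of chromosome XII, and 14 genes tested among its 10 neighbours on each side had medians of 0.01 over BR-S and 0.18 over BR-F on that day. *HSP10* (YOR020C) had replicates at -0.59 and -0.57 over BR-S (ratio -0.58 ± 0.14, adjusted p = 0.0227), and in BR-F relative to BR-S on day 7 it was at -0.49 ± 0.14 (adjusted p = 0.0549). With the loess within print blocks the ratio of *HSP10* in BR-RF was -0.15. Without array 1 the ratios were -0.73 (over BR-S) and -0.67 (over BR-F) for *HSP60* and -0.51 for *HSP10*, and without array 3 they were -1.23, -0.83 and -0.59, and all 3 calls ended in either case. *CPR3* (YML078W), the mitochondrial cyclophilin, stayed between -0.13 and 0.19 against BR-S, with no 95% interval beyond -0.47 or 0.54.

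The chaperones that sit at the ribosome and fold new chains did not pass the test in any couple. *SSB2* (YNL209W), their Hsp70, lay between -0.33 and 0.00 against BR-S, and *ZUO1* (YGR285C) and *SSZ1* (YHR064C), which form the ribosome-associated complex, between -0.15 and 0.05 and between -0.40 and -0.13. The lowest bound of their 95% intervals was -0.76, for *SSZ1* in BR-RF on day 7. *HSF1* (YGL073W), for the heat shock factor, was higher in BR-F relative to BR-S on day 7, with replicates at 0.40 and 0.77 (ratio 0.58 ± 0.16, 1.5-fold higher, adjusted p = 0.0391), in the comparison in which 8 members were lower. The call was near the threshold and ended without array 2 (0.54), without array 3 (0.40) and in 4 of 10 settings that kept all arrays. In BR-RF over BR-S *HSF1* was at 0.00 ± 0.16 on day 4 and -0.12 ± 0.16 on day 7, and in BR-RF over BR-F at -0.38 ± 0.16 and -0.48 ± 0.16 (adjusted p = 0.217 and 0.065).

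Between the structured strains no member passed the test on day 4 and 6 did on day 7. In BR-RF relative to BR-F on day 4, 0 of 39 members were called by limma (2.84% of all genes were higher and 3.13% lower), and 5 had an unadjusted p under 0.05. On day 7, 5 of 39 members (12.8%) were lower and 1 (2.56%) was higher, beside 7.44% and 7.85% of all genes. Not called on that day were 33 of 39 members and 4222 of 4984 genes, which are similar shares. The number of day 7 calls thus did not set the members apart from all genes, and the split by direction was not tested. The higher member was *CUR1*, and the lower members were *CDC37*, *HSP60* and *HSP26*, with the values given above, *FES1* and *HSP78*. *FES1* had replicates at -1.50 and -0.96 (ratio -1.23 ± 0.23, 2.35-fold lower, adjusted p = 0.00463), after 0.52 and 0.12 on day 4, and none of the settings tried ended its call. *HSP78* had replicates at -0.53 and -0.55 (ratio -0.54 ± 0.16, adjusted p = 0.041), and its call ended without array 2 (-0.47) or array 3 (-0.53). *HSP104* was at -0.52 ± 0.17 (adjusted p = 0.0596) and *APJ1* at -0.65 ± 0.23 (adjusted p = 0.0898), neither of them called. Without array 3, 2 members were called in place of 6.

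The ratio of 1 member differed between colony ages. In BR-F over BR-S *MDJ1* differed between the days by 1.32 ± 0.23 (adjusted p = 0.0455), the only call among 39 members, where 0.12% of all genes were higher on day 7 than on day 4 and 0.191% lower. This call ended without array 2 (0.88) or array 3 (1.11). In BR-RF over BR-F (0.355% of all genes higher, 0.167% lower) and in BR-RF over BR-S (0.188% higher, 0.164% lower) no member was called by limma, and 6 and 5 members had an unadjusted p under 0.05. *FES1* had a difference of -1.55 ± 0.32 in BR-RF over BR-F (day 7 minus day 4, adjusted p = 0.0854), and *CUR1* in BR-RF over BR-S had a difference of 1.19 ± 0.25 (adjusted p = 0.0757). *BTN2* in BR-F over BR-S had a difference of 1.14 ± 0.33 (adjusted p = 0.266). In every couple the dyes of array 3 on day 7 were the reverse of those on day 4, so the age of the colony and the dye cannot be told apart in that replicate.

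Chaperones outside the list were mostly not called, but only 4 to 11 genes of a list were tested in a comparison. Of all genes 1.72% to 8.61% were called lower and 2.84% to 7.85% higher in a couple and day. Calls in lists this short cannot set them apart from all genes or from the members. Of 8 subunits of the CCT chaperonin, which folds actin and tubulin in the cytosol, only *CCT5* (YJR064W) was lower against BR-S, at -1.11 ± 0.22 for BR-F and -1.20 ± 0.22 for BR-RF on day 7 (adjusted p = 0.00905 and 0.00516), and *CCT2* (YIL142W) was higher in BR-RF relative to BR-F on day 7 (0.78 ± 0.16, adjusted p = 0.00895). Medians of the CCT list against BR-S lay between -0.13 and 0.02. The prefoldin subunits, other J proteins of the cytosol and other Hsp90 co-chaperones had 0 calls against BR-S. Against BR-F, *GIM4* of prefoldin (0.70 ± 0.21 on day 7) and the J protein genes *DJP1* (0.63 ± 0.16 on day 4) and *JJJ3* (0.69 ± 0.16 and 0.75 ± 0.16) were higher in BR-RF. Of the 11 other ER chaperones, *SIL1*, an exchange factor of Kar2, was higher (0.88 ± 0.21) in BR-RF relative to BR-S on day 4 and *HLJ1*, an ER J protein, was lower (-1.02 ± 0.18) on day 7. *SIL1* (YOL031C) lies on the left arm of chromosome XV, where 14 genes tested among its 10 neighbours on each side had a median of 0.86 in BR-RF relative to BR-S on day 4. Near *CCT2* on the left arm of chromosome IX the median of neighbours in BR-RF relative to BR-F was 0.47 on day 4 (15 genes) and 0.16 on day 7 (18 genes). It reached 0.50 against BR-S. Near *DJP1* on the right arm of that chromosome the median of 15 neighbours was 0.17 in BR-RF relative to BR-F on day 4. In this couple the neighbours of *JJJ3* had medians of -0.04 and -0.004 on days 4 and 7, and those of *GIM4* 0.16 on day 7. The part of chromosome position in these ratios was not tested. The neighbours of *CUR1*, the member called higher in BR-RF, had medians of -0.37 and -0.22 over BR-F and over BR-S on day 7. Of 11 further mitochondrial chaperones and proteases on the array none was called by limma in any couple and day.

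Paralogs of *HSP31* were higher, not lower, where they were called. *HSP33* (YOR391C) was higher in BR-F relative to BR-S on day 7, with arrays at 1.57, 1.13 and 1.26 (ratio 1.3 ± 0.16, adjusted p = 0.00106), and in BR-RF on day 7 (0.60 ± 0.16, adjusted p = 0.0326). *SNO4* (YMR322C) was higher in BR-F on day 7 (1.06 ± 0.16, adjusted p = 0.00303), and *HSP32* (YPL280W) was not called. These 3 genes are near-identical copies close to chromosome ends, and their spots can share signal. Among 20 general stress genes, of which 18 to 20 were tested, 3 and 5 were lower in BR-F relative to BR-S on days 4 and 7 and 3 and 6 in BR-RF, with 1 higher in each. Of all genes 1.72% and 5.1% were lower in BR-F and 1.82% and 8.61% in BR-RF on these days. Those called higher made up 2.97% to 7.27% of all genes. *MRH1* (YDR033W), for a membrane protein related to that of *HSP30*, was lower in all 4 comparisons, from -0.89 ± 0.21 in BR-F to -1.56 ± 0.21 in BR-RF on day 7, while *DDR48* (YMR173W) was higher in BR-F on both days (1.36 ± 0.22 and 0.79 ± 0.22) and in BR-RF on day 4 (0.90 ± 0.22).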

How the data were processed

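The deposited array files hold, per the file headers, median Cy3 and Cy5 intensities of 13056 spots that the authors measured with TIGR Spotfinder and from which the local background had been subtracted. A deposited table of log2 ratios, which the authors had normalised by LOWESS in MIDAS, served as an alternative. Spots with a poor flag or without signal were left out (8040 to 10291 named spots used per array), log2 ratios were normalised by loess (span 0.3), spots of a gene were averaged, and 12 ratios were fitted with limma 3.58.1 (a mean for each of 6 couples and days, 6 residual degrees of freedom), adjusted by Benjamini-Hochberg within a couple and day. The methods of the study call the 3 arrays biological replicates, but the deposited record pairs arrays 1 and 2 as a dye swap. The fit was checked on simulated data with independent errors of equal spread in both replicates. The simulation held no dye effect, so it does not cover dye effects or the unbalanced array 3. The small number of arrays sets the precision, and p-values cover only the spread between these replicates. The members and the other lists were chosen with earlier results of these data known. Members called in any couple and day are named in full and the others by range. No sequence was used here. Alternatives were the authors' table, other normalisations and backgrounds, filters, fits with a replicate block or a dye term, a joint fit over the couples, a threshold of 1.5-fold and leaving out each array.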

Additional observations from a re-analysis of the deposited data

Results flagged for a closer look

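The ratio of *MDJ1*, for the J protein of mitochondrial Hsp70, in BR-F over BR-S differed between the ages by 1.32 on the log2 scale, which is a difference between groups under the same contrast and passed the test over all genes (adjusted p = 0.0455). It was -1.36 on day 4 and -0.04 on day 7, and on day 7 the dye-swapped arrays 1 and 2 read -1.12 and 0.56. Array 3 changed dyes between the days. With a dye term in the fit the difference was 1.16 and was not called (adjusted p = 0.205).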

How the results depend on the processing

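No call changed direction under any alternative. Of 52 calls of single members, 36 ended without array 3, which leaves 1 biological replicate and takes the spread from the other comparisons, 14 without array 1 and 9 without array 2. Another background correction (normexp) ended 21, a dye term 17, a replicate block, 3 separate arrays and a loess within print blocks 10 each, median centring 5, the authors' table and the joint fit over couples (loop fit) 4 each, and dropping dim spots or keeping poor spots 0. Leaving out each array in turn gave 0 members called for BR-RF relative to BR-F on day 4, 2 to 6 on day 7, 7 to 9 and 0 to 9 for BR-F over BR-S, 1 to 11 and 7 to 21 for BR-RF over BR-S, and for the difference between days 0 (BR-RF over BR-F) and 0 to 1 (both other couples). For BR-RF relative to BR-F on day 4 the loop fit called 2 and a threshold of 1.5-fold with an unadjusted p called 1, and on day 7 normexp and the dye term called 2 each and the loop fit 11. For BR-RF relative to BR-S on day 4 normexp called 3, the dye term 5, the loop fit 15 and the 1.5-fold threshold 14. For the difference between days the print blocks called 2, separate arrays 1 and the 1.5-fold threshold 6 in BR-RF over BR-F. In BR-F over BR-S median centring, normexp, separate arrays, the dye term and the loop fit called 0 and the 1.5-fold threshold 2, and in BR-RF over BR-S print blocks called 1, the loop fit 2 and the 1.5-fold threshold 4. The replicate block called 3 members for BR-RF relative to BR-F on day 7 and 0 for the day difference in BR-F over BR-S. Whether the replicate numbers pair samples across comparisons could not be decided. The correlations of deviations ran from -0.54 to 0.32, and dye effects of array 3 can enter them. The median of cytosolic members in BR-RF relative to BR-F on day 4 was -0.026 with the dye term and 0.020 in the loop fit, and in BR-F relative to BR-S on day 4 it was -0.56 in the authors' table. That of mitochondrial members in BR-F relative to BR-S on day 7 was -0.34 in the authors' table, -0.16 with print blocks and -0.36 in the loop fit, and in BR-RF relative to BR-S on day 7 it was -0.36 with print blocks and -0.74 with normexp. Leaving out arrays moved the cytosolic median from -0.023 to 0.029 and from -0.32 to -0.23 (BR-RF over BR-F, days 4 and 7), from -0.56 to -0.40 and from -0.40 to -0.29 (BR-F over BR-S), and from -0.60 to -0.42 and from -0.75 to -0.46 (BR-RF over BR-S). It moved the mitochondrial median from -0.22 to 0.13 and from -0.28 to -0.06, from -0.39 to -0.15 and from -0.45 to -0.20, and from -0.64 to -0.32 and from -0.86 to -0.50 in the same order. The cause of these shifts was not tested. *SSB1* was without signal on 34 of 36 spots, and the Cy3 signal over background was 0.46 for *HSP30* and 0.54 for *HSP26*.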
